A study of Homo sapiens with 8 samples.

Results

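The liver makes most of the proteins that clot blood and most of the soluble proteins of complement, and hepatoma cell lines keep part of that programme. A set of 39 genes for these proteins, 22 of coagulation and 17 of complement, was chosen by symbol and followed in 8 RNA-sequencing libraries of liver cancer cells that were resistant to sorafenib (SR) or parental (WT). Each symbol matched 1 Ensembl identifier among the 63241 of the deposited values. Their levels are given as FPKM, a unit scaled for transcript length and library size, as the authors deposited them.

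The cell lines were HepG2 and Huh7, both established from human liver tumours. From each, the study derived an SR line by exposing cells to increasing concentrations of sorafenib, an inhibitor of several kinases, and the question put to the RNA was what differs between SR and WT cells. The 4 groups were HepG2 WT (labelled control), HepG2 SR (labelled sorafenib), Huh7 WT (control) and Huh7 SR (sorafenib), with 2 libraries each. The labels put the 8 libraries in 1 batch and carry no edited allele. Each parental line gave 1 SR line, and the sources used here do not say whether it was a clone, whether the drug was present at harvest, or whether the replicates of a group were separate cultures, so p-values measure the spread between these libraries, which may be technical.

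Coagulation is a cascade of proteases that ends with thrombin cutting fibrinogen into fibrin, while complement is a parallel cascade in plasma that splits C3, tags targets and assembles a pore in membranes. Hepatocytes secrete the zymogens, the cofactors and the inhibitors of both. In inflammation, cytokines raise part of them in the liver as acute phase proteins, fibrinogen and C3 among them.

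The libraries did not sort by the cell line on their labels, and this bears on every comparison below. Over the 15173 genes tested, Pearson's r of log2(FPKM + 1) lay between 0.914 and 0.977 among 5 libraries, namely both of HepG2 WT, replicate 1 of HepG2 SR, and replicate 2 of Huh7 SR and of Huh7 WT. The replicate 1 libraries of Huh7 SR and WT had r = 0.965 with each other, and HepG2 SR replicate 2 reached at most 0.846 with any library. Over the 39 genes the pattern was the same in outline. There r was 0.995 between HepG2 SR replicate 1 and Huh7 SR replicate 2, and 0.424 between the 2 Huh7 WT libraries. HepG2 SR replicate 2, however, was nearest to the replicate 1 libraries of Huh7 WT (0.843) and Huh7 SR (0.832). With the remaining libraries it had r = 0.413 to 0.729. Of 10 hepatocyte markers, all were at 1 FPKM or more in 6 libraries and 9 were in Huh7 WT replicate 1 and Huh7 SR replicate 1, where transthyretin (TTR) was at 0.371 and 0.150. Their summed level ranged from 368 FPKM in Huh7 WT replicate 1 to 8749 in HepG2 SR replicate 1. Lists of other cell types were low. The sums were 0.732 to 9.03 FPKM for 7 mesenchymal markers, 0.772 to 4.52 for 5 endothelial markers, 0.733 to 5.96 for 6 platelet and erythroid markers, and 0.379 to 7.93 for 5 leukocyte markers without lysozyme (LYZ), which itself ranged from 44.2 to 1058. HBB and KDR were listed at 0 in the 7 libraries other than HepG2 WT replicate 2, which also listed 38276 genes above 0 against 27188 to 29071 elsewhere.

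The stretches of DNA before the genes that turn out to vary most are shown first. They are the 3 fibrinogen genes, the next 3 by range between libraries on the log2(FPKM + 1) scale (C4BPB, KNG1 and MASP1), C4BPA, the neighbour and partner of C4BPB, and CPB2, the 1 member called between SR and WT cells. Each run holds the 250 bases before the first listed start in RefSeq's table for GRCh38.p14, 5′ to 3′ on the strand of the gene. Capitals mark matches on either strand to 4 motifs. These were the core promoter box spelled TATAAA, the half-site GTTAAT of HNF1, a liver transcription factor, the C/EBP motif TTGCNNAA, and the STAT motif TTCNNNGAA, which the acute phase cytokines use.
FGA, chr4:154590743-154590992, minus strand: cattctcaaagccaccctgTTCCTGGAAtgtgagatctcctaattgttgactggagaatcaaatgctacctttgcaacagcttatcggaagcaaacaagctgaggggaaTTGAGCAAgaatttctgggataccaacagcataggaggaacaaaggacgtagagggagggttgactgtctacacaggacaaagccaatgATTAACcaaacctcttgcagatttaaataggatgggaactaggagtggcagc
FGB, chr4:154562730-154562979, plus strand: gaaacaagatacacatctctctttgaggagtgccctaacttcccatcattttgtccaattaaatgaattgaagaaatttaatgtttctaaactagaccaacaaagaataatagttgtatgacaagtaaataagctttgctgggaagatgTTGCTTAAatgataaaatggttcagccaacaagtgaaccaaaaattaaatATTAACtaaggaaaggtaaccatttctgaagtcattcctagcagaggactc
FGG, chr4:154612657-154612906, minus strand: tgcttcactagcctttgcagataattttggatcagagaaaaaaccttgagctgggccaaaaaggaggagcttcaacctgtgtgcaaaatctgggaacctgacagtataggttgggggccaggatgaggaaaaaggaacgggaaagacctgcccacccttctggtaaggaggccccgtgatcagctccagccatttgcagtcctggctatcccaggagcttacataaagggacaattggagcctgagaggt
C4BPB, chr1:207088610-207088859, plus strand: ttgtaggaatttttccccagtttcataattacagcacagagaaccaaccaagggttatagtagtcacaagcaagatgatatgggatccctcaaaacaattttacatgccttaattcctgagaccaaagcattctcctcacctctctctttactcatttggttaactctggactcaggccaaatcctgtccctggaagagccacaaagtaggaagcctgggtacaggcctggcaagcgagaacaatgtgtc
C4BPA, chr1:207103983-207104232, plus strand: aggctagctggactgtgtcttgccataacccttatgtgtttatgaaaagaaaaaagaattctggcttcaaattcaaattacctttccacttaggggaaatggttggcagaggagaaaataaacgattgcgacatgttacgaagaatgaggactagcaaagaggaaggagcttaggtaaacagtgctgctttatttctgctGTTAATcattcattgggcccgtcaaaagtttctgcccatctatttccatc
KNG1, chr3:186717109-186717358, plus strand: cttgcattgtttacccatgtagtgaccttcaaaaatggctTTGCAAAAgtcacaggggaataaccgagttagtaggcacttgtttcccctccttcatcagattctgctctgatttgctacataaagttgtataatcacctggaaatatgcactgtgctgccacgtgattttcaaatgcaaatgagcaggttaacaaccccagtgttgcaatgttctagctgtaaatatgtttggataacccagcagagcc
MASP1, chr3:187291738-187291987, minus strand: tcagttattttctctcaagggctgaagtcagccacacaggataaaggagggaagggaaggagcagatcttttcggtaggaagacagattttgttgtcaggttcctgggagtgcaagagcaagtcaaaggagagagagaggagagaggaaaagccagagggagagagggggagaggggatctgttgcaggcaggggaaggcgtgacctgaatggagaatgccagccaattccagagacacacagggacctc
CPB2, chr13:46105034-46105283, minus strand: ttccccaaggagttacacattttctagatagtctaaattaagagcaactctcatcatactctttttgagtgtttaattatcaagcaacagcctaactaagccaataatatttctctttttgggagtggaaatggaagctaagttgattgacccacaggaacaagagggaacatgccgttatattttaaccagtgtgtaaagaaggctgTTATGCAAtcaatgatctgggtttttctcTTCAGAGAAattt

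In these windows FGA and FGB each held an HNF1 half-site at nearly the same place, beginning 52 and 51 bases before the start, and a C/EBP match 141 and 101 bases before it. FGA also held a STAT match 231 bases upstream. FGG held none of the 4 motifs, although its level followed those of the other chains below. The C4BPA window had an HNF1 half-site 50 bases upstream, and those of C4BPB and MASP1 had no match. KNG1 carried a C/EBP match 210 bases upstream, and CPB2 a C/EBP and a STAT match 42 and 13 bases upstream. Of the 39 genes, 36 had an entry in the table, all but C1S, C8G and C3. The HNF1 half-site was in 7 of these 36 windows, C/EBP in 9, STAT in 10 and TATAAA in 3, or 19.4%, 25%, 27.8% and 8.33%. Over all 35116 windows of this length in the table, which lists several starts for some genes, the shares were 6.23%, 9.05%, 6.57% and 10.7%. These are letter matches and no measure of binding.

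In all, 33 of the 39 genes reached 1 FPKM in at least 2 libraries and entered the tests. The 6 that did not were F9, PLG, C9, F8, F13B and KLKB1. F9 (factor IX), PLG (plasminogen, which dissolves fibrin), C9 (the pore-forming end of complement) and F8 (factor VIII, the cofactor of factor IX) stayed under 1 FPKM everywhere. F13B, the carrier subunit of the fibrin-linking factor XIII, and KLKB1, plasma prekallikrein, reached 1.72 and 1.92 FPKM in HepG2 SR replicate 2 and stayed at or below 0.54 and 0.19 in the other 7. The number of the 39 genes at 1 FPKM or more was 30 to 33 in the 4 HepG2 libraries and 32 in Huh7 SR replicate 2, against 20 to 22 in the other 3 Huh7 libraries. The median range between the lowest and the highest library was 3.34 on the log2(FPKM + 1) scale for the 33 and 1.45 for all genes tested, and 27 of 33 (81.8%) had a range of at least 2, against 27.4% of all genes tested. Of the 33, 11 were highest in HepG2 SR replicate 2 and 8 in Huh7 SR replicate 2, whereas 14 were lowest in Huh7 WT replicate 1 and 12 in Huh7 WT replicate 2 (C6, tied at 0 in 3 libraries, is counted with the first of them).

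**Figure D1:**
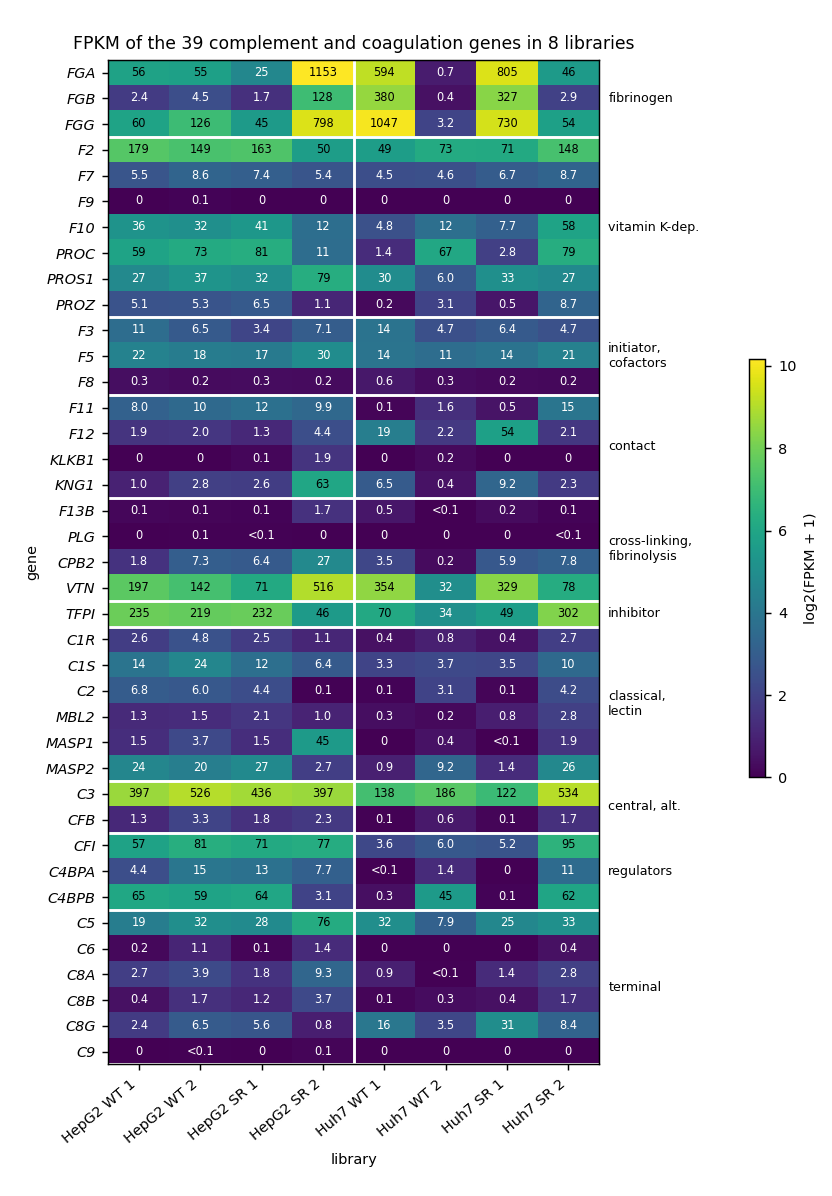
FPKM of each of the 39 genes (rows, grouped by role, with the value printed) in the 8 libraries (columns), coloured by log2(FPKM + 1). The fibrinogen chains are brightest in HepG2 SR replicate 2 and in both replicate 1 libraries of Huh7, and darkest in Huh7 WT replicate 2.

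The 3 fibrinogen chains had the widest ranges of the set on the log2(FPKM + 1) scale. FGA, FGB and FGG encode the alpha, beta and gamma chains of the clotting substrate and lie side by side on chromosome 4, from 154562956 to 154612967 (GRCh38). In the order replicate 1 then replicate 2, which is kept below, FGA was at 56.5 and 54.7 FPKM in HepG2 WT, 25.4 and 1153 in HepG2 SR, 594 and 0.70 in Huh7 WT, and 805 and 46.0 in Huh7 SR. FGB was at 2.40 and 4.51 in HepG2 WT, 1.69 and 128 in HepG2 SR, 380 and 0.39 in Huh7 WT, and 327 and 2.95 in Huh7 SR. FGG was at 59.6 and 126 in HepG2 WT, 45.2 and 798 in HepG2 SR, 1047 and 3.20 in Huh7 WT, and 730 and 53.9 in Huh7 SR. Each chain thus showed 3 levels, high in HepG2 SR replicate 2 and in both replicate 1 libraries of Huh7, lowest in Huh7 WT replicate 2, and between these in the other 4 libraries. The highest library held 1643 times the FPKM of the lowest for FGA, 984 times for FGB and 328 times for FGG. In no cell line were the SR libraries on one side of the WT libraries for any chain. The chains did not keep a fixed proportion. FGB was the lowest of the 3 in every library, and FPKM of FGA over FGB was 1.56 and 1.82 in Huh7 WT and 2.46 in replicate 1 of Huh7 SR, against 9.02 to 23.6 in the other 5.

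**Figure D2:**
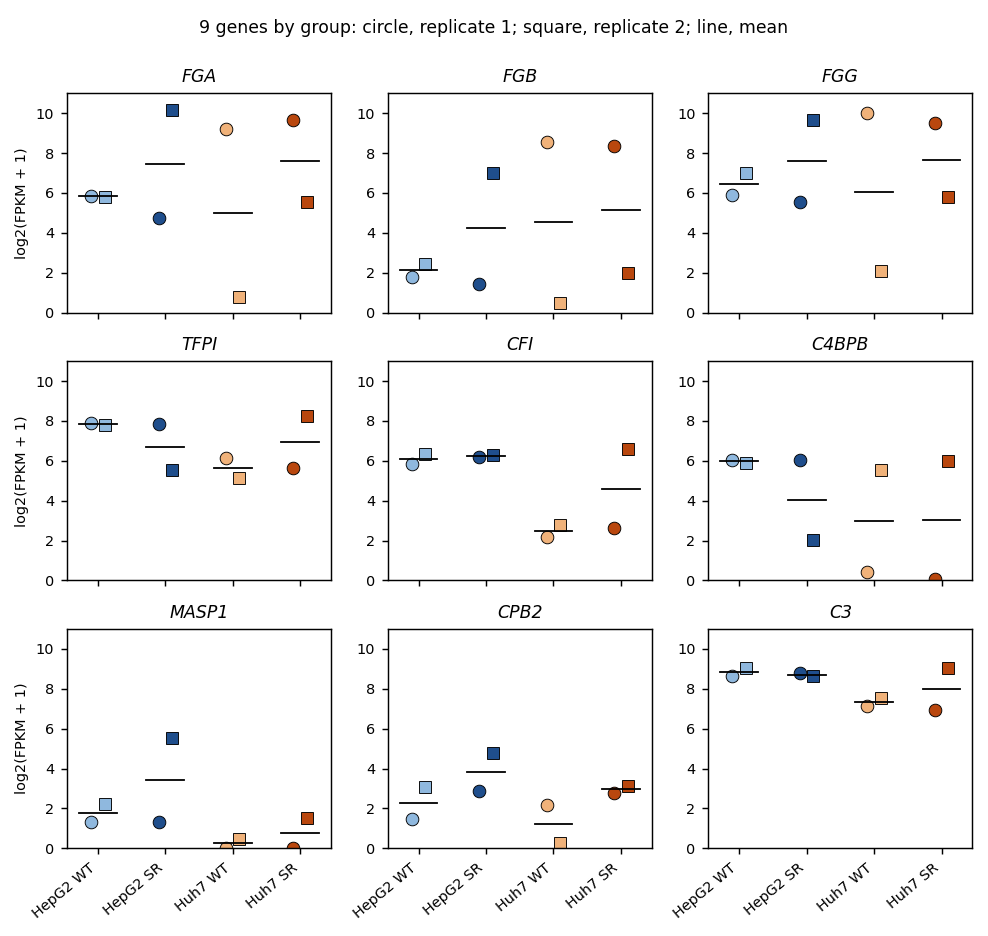
Level of 9 genes as log2(FPKM + 1) (vertical axis) in the 4 groups (horizontal axis), with a circle for replicate 1, a square for replicate 2 and a line at the mean of the 2 libraries. For FGA the 2 Huh7 WT libraries lie at 594 and 0.70 FPKM, farther apart than any 2 group means.

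Among the vitamin K-dependent proteins, which need gamma-carboxylation to bind membranes, 6 of 7 were tested. F2 (prothrombin, the precursor of thrombin) was at 179 and 149 FPKM in HepG2 WT, 163 and 49.7 in HepG2 SR, 49.0 and 73.4 in Huh7 WT, and 71.0 and 148 in Huh7 SR. F10 (factor X, which activates prothrombin) was at 36.2 and 32.4 in HepG2 WT, 40.5 and 11.8 in HepG2 SR, 4.82 and 12.2 in Huh7 WT, and 7.68 and 58.1 in Huh7 SR. PROC (protein C, an anticoagulant protease) was at 58.9 and 72.6 in HepG2 WT, 80.9 and 11.4 in HepG2 SR, 1.44 and 66.7 in Huh7 WT, and 2.78 and 79.5 in Huh7 SR. These 3 were low where fibrinogen was high. PROZ, the cofactor of the protein Z-dependent inhibitor, was lowest in the same 3 libraries, and ranged from 0.19 FPKM in Huh7 WT replicate 1 to 8.70 in Huh7 SR replicate 2. PROS1 (protein S, the cofactor of protein C) ran the other way in HepG2 SR replicate 2, with its maximum of 79.2 FPKM there and 5.97 to 37.4 elsewhere. F7 (factor VII, the partner of tissue factor) was the steadiest tested member, between 4.47 and 8.71 FPKM. F7, F10 and PROZ follow each other on chromosome 13 within the span 113105788 to 113172383.

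The initiator and the cofactors had narrower ranges. F3 (tissue factor, which starts clotting) was at 11.4 and 6.47 FPKM in HepG2 WT, 3.37 and 7.09 in HepG2 SR, 13.5 and 4.65 in Huh7 WT, and 6.44 and 4.73 in Huh7 SR. F5 (factor V, the cofactor of factor X) stayed between 11.5 and 30.0 FPKM. SR and WT libraries overlapped in both lines for both genes. TFPI, the inhibitor of tissue factor and factor X, was at 235 and 219 FPKM in HepG2 WT, 232 and 45.6 in HepG2 SR, 70.4 and 33.6 in Huh7 WT, and 49.4 and 302 in Huh7 SR. Its transcript level was thus lowest in Huh7 WT replicate 2 and highest in Huh7 SR replicate 2, a ratio of 8.98. An antisense gene, AC007319.1, overlaps exons of TFPI and was listed at 0.819 to 26.6 FPKM.

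In the contact system, which starts clotting on surfaces and releases bradykinin, F11 (factor XI) was at 8.01 and 10.2 FPKM in HepG2 WT, 12.4 and 9.87 in HepG2 SR, 0.11 and 1.59 in Huh7 WT, and 0.45 and 14.6 in Huh7 SR. F12 (factor XII) was at 1.90 and 2.03 in HepG2 WT, 1.26 and 4.40 in HepG2 SR, 19.2 and 2.20 in Huh7 WT, and 54.2 and 2.15 in Huh7 SR. KNG1 (kininogen, the source of bradykinin) was at 0.96 and 2.81 in HepG2 WT, 2.60 and 63.3 in HepG2 SR, 6.51 and 0.40 in Huh7 WT, and 9.16 and 2.29 in Huh7 SR. Each had its own high libraries. F11 was low in 3 Huh7 libraries, F12 was high in the replicate 1 libraries of Huh7, and KNG1 stood out in HepG2 SR replicate 2. F12 shares exonic sequence with GRK6 on the opposite strand (6.33 to 35.6 FPKM), and KLKB1 with CYP4V2 on the same strand.

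CPB2 and VTN were the tested members of the group for fibrin cross-linking and fibrinolysis. CPB2 encodes a carboxypeptidase that slows fibrinolysis, and was at 1.78 and 7.33 FPKM in HepG2 WT, 6.44 and 26.8 in HepG2 SR, 3.49 and 0.21 in Huh7 WT, and 5.92 and 7.80 in Huh7 SR. VTN (vitronectin, which binds the terminal complement complex) was at 197 and 142 in HepG2 WT, 70.5 and 516 in HepG2 SR, 354 and 31.7 in Huh7 WT, and 329 and 77.6 in Huh7 SR. The order of the libraries for VTN was like that for FGA, whereas CPB2 was lower in Huh7 WT replicate 1 than in either Huh7 SR library.

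On the complement side, C3, the protein on which all pathways converge, was the most abundant member in 5 of 8 libraries, at 397 and 526 FPKM in HepG2 WT, 436 and 397 in HepG2 SR, 138 and 186 in Huh7 WT, and 122 and 534 in Huh7 SR. CFB (factor B, the protease of the alternative pathway) stayed between 0.06 and 3.29 FPKM. Its gene overlaps that of C2 on chromosome 6, and a transcript that reads through both is annotated, so the split of reads between the 2 genes is uncertain. C2, the protease of the classical and lectin pathways, was at 6.81 and 5.96 in HepG2 WT, 4.36 and 0.05 in HepG2 SR, 0.06 and 3.09 in Huh7 WT, and 0.09 and 4.16 in Huh7 SR. It was near 0 in the 3 libraries with the most fibrinogen.

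The initiating proteases of the classical pathway, C1R and C1S, lie near each other on chromosome 12 and had like profiles. C1S was at 14.0 and 24.4 FPKM in HepG2 WT, 12.04 and 6.42 in HepG2 SR, 3.30 and 3.71 in Huh7 WT, and 3.55 and 10.1 in Huh7 SR. C1R was at 2.61 and 4.85 in HepG2 WT, 2.48 and 1.12 in HepG2 SR, 0.38 and 0.84 in Huh7 WT, and 0.41 and 2.70 in Huh7 SR. Both were lower in either HepG2 SR library than in either HepG2 WT library, and C1S over C1R in FPKM was 3.75 to 8.78 in the 8 libraries. Exons of C1S overlap EMG1 on the same strand, and exons of C1R overlap C1RL. Of the lectin pathway, MASP2 (the protease that cuts C4 and C2) was at 24.4 and 19.6 in HepG2 WT, 27.4 and 2.73 in HepG2 SR, 0.85 and 9.17 in Huh7 WT, and 1.44 and 26.2 in Huh7 SR. MASP1, the protease that activates MASP2, was at 1.51 and 3.70 in HepG2 WT, 1.52 and 45.0 in HepG2 SR, 0 (as listed) and 0.40 in Huh7 WT, and under 0.01 and 1.90 in Huh7 SR. The pair thus went in opposite directions in HepG2 SR replicate 2, where MASP1 was at its highest. MBL2, the mannose-binding lectin that recruits both, was at 1.31 and 1.45 in HepG2 WT, 2.07 and 1.01 in HepG2 SR, 0.29 and 0.19 in Huh7 WT, and 0.80 and 2.77 in Huh7 SR.

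The fluid-phase regulators showed wide gaps between libraries. CFI (factor I, which cuts C3b and C4b) was at 56.7 and 81.4 FPKM in HepG2 WT, 71.2 and 77.3 in HepG2 SR, 3.57 and 5.97 in Huh7 WT, and 5.17 and 95.5 in Huh7 SR. C4BPB, the beta chain of the C4b-binding protein that also carries protein S, was at 65.3 and 59.0 in HepG2 WT, 63.8 and 3.12 in HepG2 SR, 0.35 and 45.1 in Huh7 WT, and 0.06 and 61.7 in Huh7 SR. C4BPA, its alpha chain, was at 4.37 and 14.9 in HepG2 WT, 12.8 and 7.66 in HepG2 SR, 0.01 and 1.40 in Huh7 WT, and 0 (as listed) and 10.6 in Huh7 SR. CFI was high in 5 libraries including HepG2 SR replicate 2, whereas C4BPB was low there. The alpha to beta ratio in FPKM was 2.46 in HepG2 SR replicate 2 and at most 0.253 in the other 7, although the 2 genes stand 4268 bases apart on chromosome 1.

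In the terminal pathway, C5 starts the assembly of the membrane pore. C5 was at 19.1 and 32.0 FPKM in HepG2 WT, 28.5 and 75.5 in HepG2 SR, 31.8 and 7.87 in Huh7 WT, and 24.9 and 33.3 in Huh7 SR. C8A, C8B and C8G encode the chains of C8, the component before the pore closes. C8A was at 2.75 and 3.89 in HepG2 WT, 1.78 and 9.29 in HepG2 SR, 0.88 and 0.04 in Huh7 WT, and 1.41 and 2.80 in Huh7 SR. C8G was at 2.37 and 6.54 in HepG2 WT, 5.55 and 0.79 in HepG2 SR, 15.6 and 3.51 in Huh7 WT, and 30.7 and 8.43 in Huh7 SR. C8A and C8G were opposite in HepG2 SR replicate 2, where C8A was highest and C8G lowest. C8B reached at most 3.74 FPKM and C6 at most 1.38.

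Between SR and WT cells of HepG2, no member was called. A call here needs both an unadjusted p below 0.05 and a log2 fold change past 0.5 or -0.5, as the study set them. By limma, 0 of 33 members were called and 0 had an unadjusted p under 0.05, beside 2.14% of all genes tested that were called. The median log2 fold change was 0.06 for the 33 members and -0.03 for all genes tested, and 18 of 33 were positive. Without HepG2 WT replicate 1 the members' median was -0.33. For 3 members both SR libraries were below both WT libraries (20.1% of all genes tested), and for 0 they were above both (18.1%). The 3 were C2, C1S and C1R, with log2 fold changes of -1.63 (SE 1.08), -0.99 (SE 0.55) and -0.76 (SE 0.58) and unadjusted limma p of 0.174, 0.118 and 0.233. The adjusted p was 0.956 for each. Without HepG2 SR replicate 2 the 3 fold changes were -0.46, -0.58 and -0.40, and without HepG2 SR replicate 1 they were -2.81, -1.40 and -1.12.

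The 2 HepG2 SR libraries did not share one pattern. Against the mean of the WT libraries, HepG2 SR replicate 1 had 0 of 33 members higher by at least 1 on the log2(FPKM + 1) scale (1.54% of all genes tested) and 3 lower (1.86%), namely VTN by -1.23, F3 by -1.14 and FGA by -1.10. HepG2 SR replicate 2 had 11 members higher (13% of all genes tested) and 11 lower (17.1%). The higher ones were led by FGB at 4.90, KNG1 at 4.56, FGA at 4.35, MASP1 at 3.74, FGG at 3.19 and CPB2 at 2.53. The lower ones were led by C4BPB at -3.94, C2 at -2.81, MASP2 at -2.62, PROC at -2.42 and TFPI at -2.29. PROS1, VTN, C5, C8A and C8B completed the higher side, and F2, F10, PROZ, C1R, C1S and C8G the lower side, so each cascade had members on both sides. These are differences of 1 library with no replicate check. Without HepG2 SR replicate 1, 4 members were called, with CPB2, KNG1 and MASP1 higher and F2 lower, but 11.6% of all genes tested were called in that fit. Without HepG2 SR replicate 2, 0 members and 0.388% of all genes tested were.

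**Figure D3:**
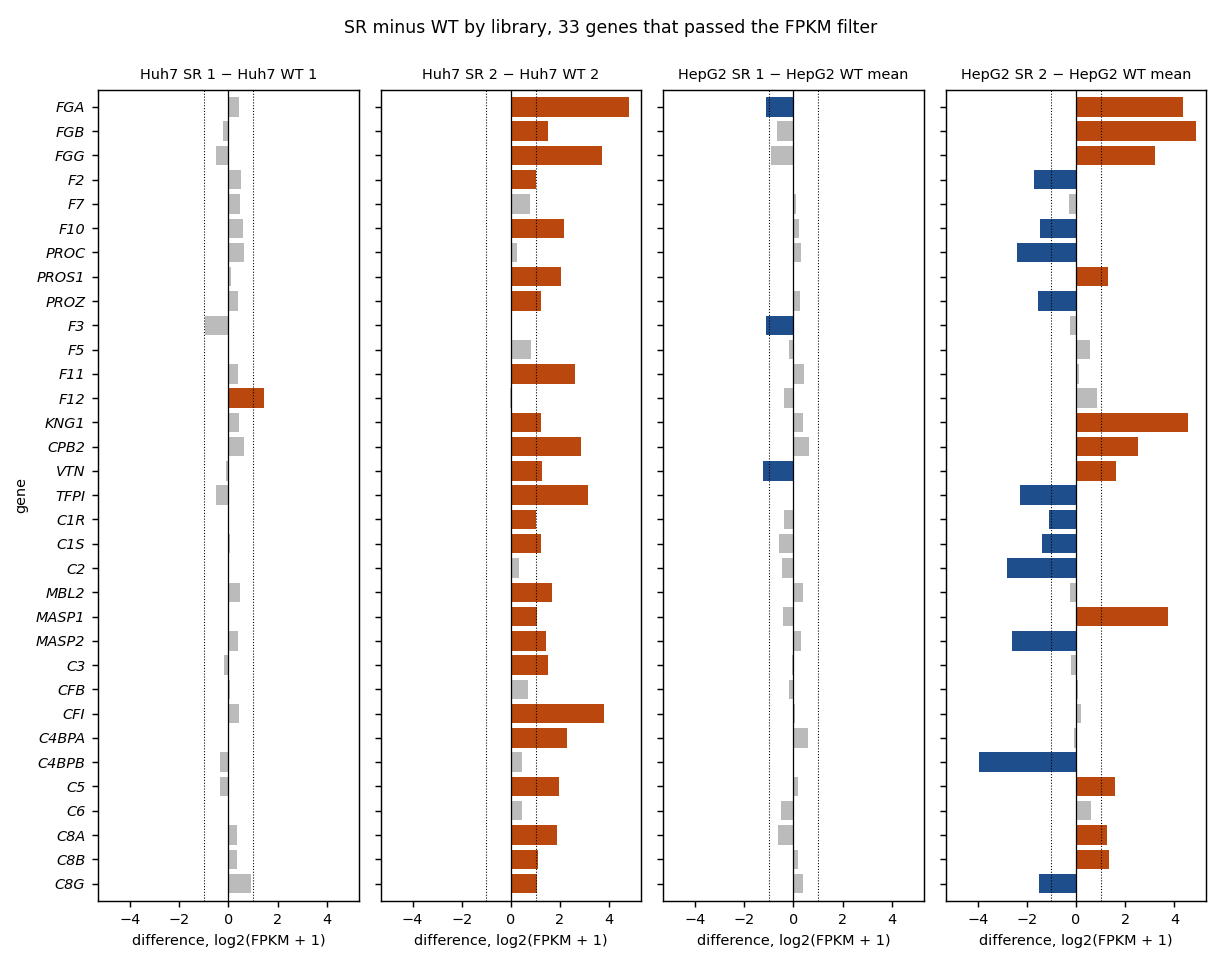
Difference in log2(FPKM + 1), SR minus WT (horizontal axis), for each of the 33 tested members (vertical axis), with differences of at least 1 coloured red (higher) or blue (lower). Each Huh7 SR library is set against the WT library of the same number, and each HepG2 SR library against the HepG2 WT mean. In Huh7 replicate 2, 24 members are higher by at least 1, in Huh7 replicate 1 only F12 is, and in HepG2 SR replicate 2 there are 11 on each side.

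In Huh7, 32 of 33 members had a higher mean of log2(FPKM + 1) in SR than in WT cells, F3 being the exception. Of all genes tested, 44.7% had a higher mean. In mean FPKM, FGB (190 in WT, 165 in SR) and FGG (525 in WT, 392 in SR) were also lower in SR. The median log2 fold change was 0.76 for the members and -0.05 for all genes tested. With libraries rescaled to a common sum, which moved the median of all genes to -0.12, the members' median was 0.68 and 31 were positive. Nevertheless, 0 of 33 members were called by limma and 0 had an unadjusted p under 0.05, beside 1.87% of all genes tested that were called. For 5 members both SR libraries were above both WT libraries (9.06% of all genes tested), and for 0 they were below both (12.9%). These were CPB2, C8A, MBL2, C8B and F7. CPB2 had a log2 fold change of 1.74 (SE 0.90), C8A of 1.11 (SE 0.68) and MBL2 of 1.07 (SE 0.47), with unadjusted limma p of 0.0966, 0.147 and 0.0578, and none was past 0.05 after adjustment. With 1 Huh7 library left out, the fold change of CPB2 ran from 0.80 (WT replicate 2 out) to 2.68 (WT replicate 1 out). That of C8A ran from 0.69 to 1.54 on leaving out the same libraries, and that of MBL2 from 0.53 (SR replicate 2 out) to 1.61 (SR replicate 1 out). MBL2 was called with a pseudocount of 0.1, at an unadjusted limma p of 0.0313, and without the FPKM filter, at 0.0489.

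With the Huh7 libraries paired by replicate number, most of this difference lay in 1 pair. The counts below rest on that pairing. They are not directly comparable with those of HepG2, where each SR library was set against the WT mean. Between Huh7 SR replicate 1 and Huh7 WT replicate 1, 1 of 33 members was higher by at least 1 (2.91% of all genes tested) and 0 lower (2.23%), with F12 at 1.45 and a median of 0.11. Between Huh7 SR replicate 2 and Huh7 WT replicate 2, 24 were higher (7.69%) and 0 lower (7.94%), with a median of 1.24. The largest were FGA at 4.79, CFI at 3.79, FGG at 3.71, TFPI at 3.13, CPB2 at 2.86 and F11 at 2.59, so procoagulant, anticoagulant and complement genes were higher together. In the same pair, the 10 hepatocyte markers summed to 2158 FPKM in WT and 8355 in SR, and LYZ was at 44.2 and 1058. In replicate 1 the hepatocyte sums were 368 and 893. The part of these levels in the result was not tested. Since the cells were measured in bulk, fewer cells that express a gene and less of its RNA per cell cannot be told apart. Leaving out 1 Huh7 library moved the members' median to 0.11 (SR replicate 2 out), 0.62 (WT replicate 1 out), 0.73 (WT replicate 2 out) or 1.29 (SR replicate 1 out). The calls changed too. Without Huh7 SR replicate 1 there were 7 (C3, C4BPA, CFI, F10, F11, MBL2 and TFPI), without Huh7 WT replicate 1 there were 5 (C5, CPB2, FGA, FGG and PROS1), and without Huh7 SR replicate 2 there was 1 (F12), each of them higher in SR. Of all genes tested, 3.91%, 5.61% and 1.36% were called in these fits.

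Over both cell lines, 1 of 33 members was called by limma, CPB2, beside 3.93% of all genes tested. The 4 SR libraries held 5.92 to 26.8 FPKM of CPB2 and the 4 WT libraries 0.21 to 7.33, with a log2 fold change of 1.66 (SE 0.64), an unadjusted p of 0.0363 and an adjusted p of 0.998 by limma. The libraries overlapped in that HepG2 WT replicate 2 was above 2 of the SR libraries. With 1 library left out, the CPB2 call held in 3 of 8 fits, those without HepG2 WT replicate 2, HepG2 SR replicate 1 or Huh7 WT replicate 1, and its log2 fold change lay between 1.18 and 2.14. In the 5 libraries with like expression it was 1.41, at an unadjusted limma p of 0.0727, and with the 3 expression profiles as a term 1.18, at 0.0800. For 0 members did the 4 SR and 4 WT libraries stand apart, in either direction, as they did for 3.68% of all genes tested, so no exact permutation test was run. The median log2 fold change was 0.38 for the members and -0.05 for all genes tested, and 25 of 33 were positive. In the 5 like libraries the only member called was MBL2, higher in SR by 0.85 (SE 0.37) at an unadjusted limma p of 0.0490, beside 5.85% of all genes tested that were called. With profile as a term, MBL2, PROZ and C8G were called higher and F3 lower, beside 8.21% of all genes tested, and the median of the members was 0.38. Neither of these models held a term for cell line. The profiles were taken from these same values. HepG2 SR replicate 2 was alone in its profile and added nothing to the SR estimate of that model.

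The SR effect was not shown to differ between the lines. The difference of the 2 effects was called for 0 of 33 members by limma, and 0 had an unadjusted p under 0.05, beside 0.606% of all genes tested that were called. Its median was 0.80 for the members and -0.04 for all genes tested. Without Huh7 SR replicate 1, 8 were called (C1R, C1S, C3, CFI, F10, F11, MBL2 and TFPI), beside 3.25% of all genes tested. Without HepG2 SR replicate 1, 3 were (F2, MASP1 and TFPI), beside 6.25%.

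**Figure D4:**
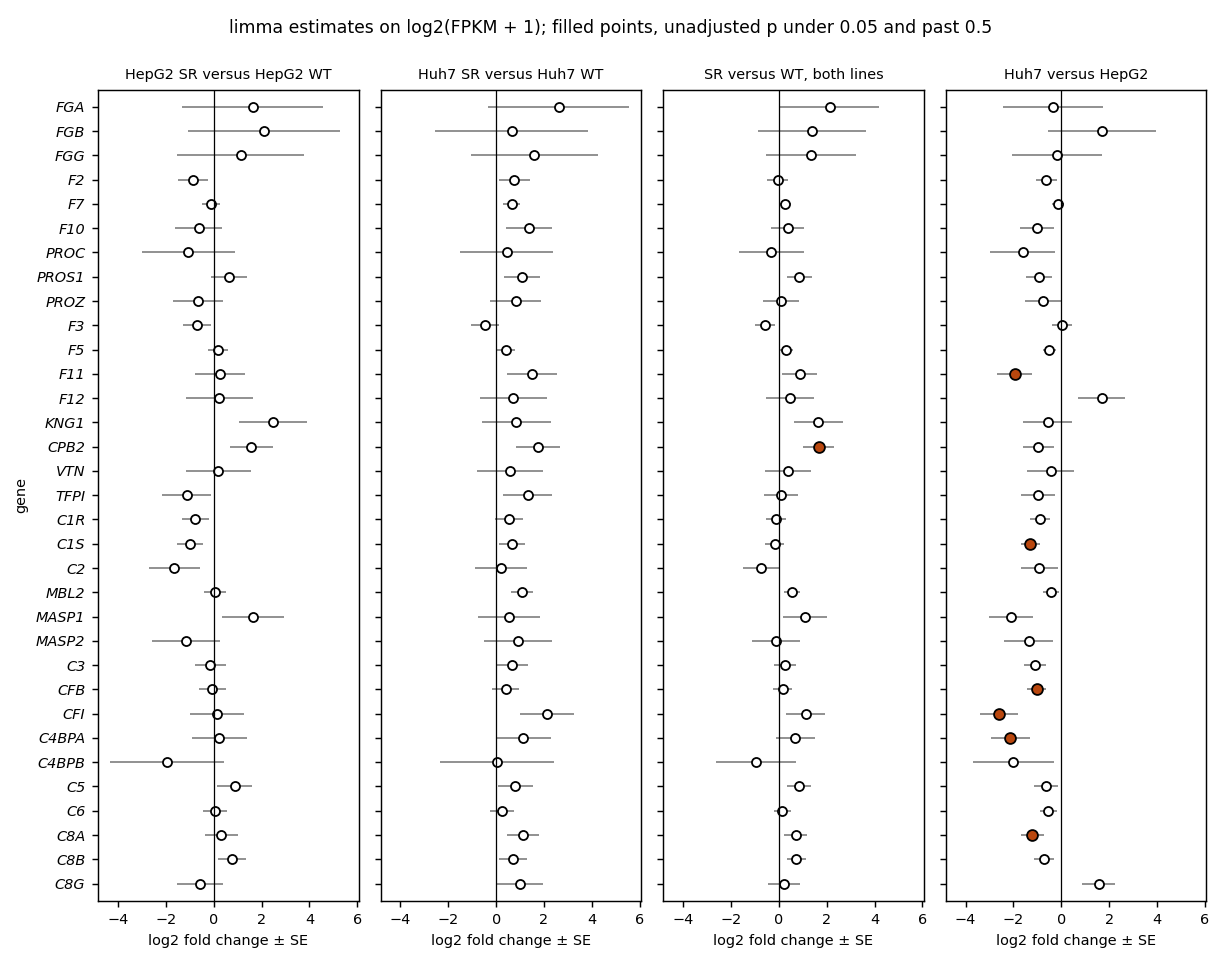
Log2 fold change ± SE from limma (horizontal axis, log2(FPKM + 1) scale) of the 33 tested members (vertical axis) in 4 comparisons, with filled points for calls. CPB2 is the only filled point between SR and WT cells, and 6 members are filled to the left of 0 for Huh7 against HepG2.

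Between the cell lines as labelled, 5 complement genes and F11 were called lower in Huh7, none of them past adjustment. Of 33 members, 6 were called, beside 4.9% of all genes tested, and all 6 were lower in Huh7, beside 2.87% of all genes tested that were called lower. These were CFI with a log2 fold change of -2.62 (SE 0.80), C4BPA of -2.12 (SE 0.82), F11 of -1.95 (SE 0.74), C1S of -1.29 (SE 0.39), C8A of -1.22 (SE 0.48) and CFB of -1.03 (SE 0.40), the Huh7 mean minus the HepG2 mean over SR and WT libraries. Their unadjusted limma p lay between 0.0136 (C1S) and 0.0400 (C8A), and the adjusted p was 0.813 for each. CFI was called with any 1 of the 8 libraries left out, with a fold change from -3.61 to -1.63, and C1S in 7 of 8 such fits. F11, C4BPA, C8A and CFB were each called in 3 of 8. In all, 29 of 33 members had a lower mean of log2(FPKM + 1) in Huh7, with a median of -0.89 against 0.03 for all genes tested. Among these 29, C6 passed the filter only through HepG2 WT replicate 2 (1.06 FPKM) and HepG2 SR replicate 2 (1.38). For 0 members, however, were the 4 Huh7 libraries all below the 4 HepG2 libraries (1.69% of all genes tested), since Huh7 SR replicate 2 held C1S, CFB, C4BPA and C8A within the range of the HepG2 libraries, and CFI and F11 above it.

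Some other genes of the 2 cascades were called, but none past adjustment. Of 28 further complement genes and 28 further coagulation genes, 35 were tested. In HepG2, 1 was called, beside 2.14% of all genes tested. This was F2RL1, a receptor cleaved by clotting proteases, at 91.1 and 46.1 FPKM in WT and 21.3 and 4.96 in SR, a log2 fold change of -2.52. In Huh7, 3 of the 35 were called, beside 1.87% of all genes tested, and all were higher in SR. FGL1, a fibrinogen-like hepatokine, was at 6.91 and 8.29 FPKM in WT and 20.4 and 79.1 in SR, a log2 fold change of 2.27. SERPINF2, the inhibitor of plasmin, was at 1.31 and 4.59 in WT and 6.73 and 59.5 in SR, a change of 2.59 on the log2 scale. GGCX, the enzyme that carboxylates the vitamin K-dependent proteins, was at 10.2 and 10.8 in WT and 16.3 and 19.8 in SR, a change of 0.72 on that scale. Over both lines 2 were called, FGL1 higher and F2RL1 lower, beside 3.93% of all genes tested. The adjusted limma p was at least 0.956 in each of these comparisons. Between the lines as labelled 7 of the 35 were called, beside 4.9% of all genes tested. Of these, 6 were lower in Huh7, beside 2.87% of all genes tested that were called lower. For the difference of the effects 0 were called, beside 0.606%. The most abundant of these genes was A2M, a general protease trap, at 127 to 710 FPKM. CLU (clusterin, an inhibitor of the terminal complex) ranged from 42.8 in Huh7 WT replicate 2 to 769 in HepG2 SR replicate 2.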

How the data were processed

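Polyadenylated RNA of WT and SR cells of both lines was sequenced in 8 libraries, 2 per group, from a kit that does not mark strand, so reads of a gene and an antisense partner cannot be told apart. The authors deposited FPKM values, 1 per gene and library, scaled for transcript length and library total. The submitters' processing notes name fastp 0.20.0 and GRCh38, and the aligner and counter are not given in the sources used here. Depth is not part of these values, so no counting interval was derived.

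Samples were grouped by their labels. A table of identifiers gave symbols (62666 of 63241 matched), gene positions and exon overlaps from GENCODE release 29 (GRCh38), and promoter windows from RefSeq. The study's own test needs counts, so log2(FPKM + 1) was tested with limma 3.58.1 (functions lmFit and eBayes, with a trend) under R 4.3.3. A single model held a mean for each of the 4 groups (4 residual degrees of freedom) and covered the 15173 genes with at least 1 FPKM in at least 2 libraries. As in the study, a call needs both an unadjusted p below 0.05 and a log2 fold change past 0.5 or -0.5. Adjusted p-values are Benjamini-Hochberg over all genes tested, and 0 genes passed 0.05 after adjustment in any of the 5 comparisons. Fold changes on this scale understate those of low genes. The procedure was tested on simulated data in which libraries varied independently, so that test does not cover the profiles shared across labels here.

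The members, their roles and the other gene lists were chosen with earlier results of these data known. Fold changes with errors are given for members called in a comparison and for up to 3 members with the largest change in each SR comparison whose SR and WT libraries did not overlap. Other pathway genes are given where called between SR and WT or among the most abundant. Single-library differences were compared at 1 on the log2 scale. The alternatives were another pseudocount (0.1), no filter, a common sum, quantile normalization, a replicate block, separate fits, the 5 like libraries, the 3 expression profiles as a term, the adjusted p, and each library left out. The same scalings of the single-library differences were added after the values were seen. Tables were made with pandas 2.3.3 and NumPy 2.4.6 under Python 3.11.15, and figures with matplotlib 3.10.9. Values of 2 further genes are not reported here.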

Additional observations from a re-analysis of the deposited data

How the results depend on the processing

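With 2 libraries per group and no member past an adjusted p, the counts of called members are unstable. At an adjusted p under 0.05, 0 members were called over both lines and 0 between the lines. A pseudocount of 0.1 or no filter each gave 1 call in Huh7 (MBL2). With the replicate number as a block within each line there were 3 calls in HepG2 (C2, CPB2, KNG1), 5 in Huh7 (CFI, CPB2, F10, F11, MBL2), 3 over both lines, 18 between the lines and 2 for the difference of the effects, beside 9.17%, 4.41%, 9.95%, 16.4% and 3.53% of all genes tested. Deviations of same-numbered libraries had r = 0.125 in HepG2 and 0.796 in Huh7. In Huh7, r over the genes tested was 0.965 and 0.914 within the same-numbered pairs, and 0.754 between the WT libraries. With 2 pairs per line and no label of a shared culture, the main model did not use the number. Expression profile as a term gave 4 calls over both lines. With 1 library left out, calls ranged from 0 to 4 in HepG2, 0 to 7 in Huh7, 0 to 5 over both lines, 1 to 12 between the lines and 0 to 8 for the difference. The share of all genes tested that were called also changed with the library left out. In HepG2 and between the lines, the fit with the most members called also had the largest such share. This was not so in the other comparisons. These ranges therefore do not by themselves set the members apart from all genes. A group left with 1 library was assumed to vary like the others. Of the single-library counts, those of Huh7 replicate 1 moved, to 5 higher and 2 lower with a pseudocount of 0.1 and to 1 lower with a common sum. No fold change given with an error for a member reversed under the alternatives run for it, whereas the members' median in HepG2 did without HepG2 WT replicate 1 (-0.33). Quantile normalization and separate fits left the counts of calls within 1.5 times. Fold changes of other pathway genes were not recomputed. Depth is unknown, so differences among members under 1 FPKM cannot be weighed against counting error.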
